A study of Mus musculus with 2 samples.

Results

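The 7 genes described here, Gabra2, Gabra4, Gabra5, Gabrb1, Gabrb2, Gabrg1 and Gabrg3, encode subunits of the GABA-A receptor and lie in 3 gene clusters on mouse chromosomes 5, 7 and 11. They were taken by name, with earlier results of these data known, and are 7 of the 21938 protein-coding genes of the annotation. Around them, every CTCF binding site was collected whose summit, the position of highest signal within a peak, lay between the outer ends of the listed genes of a cluster or within 100 kb of those ends. This gave 34 of the 56462 summits that the authors' optimal peak list places on chromosomes 1 to 19, X and Y, out of 56470 peaks in that list. Other genes of these clusters were not analysed here.

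CTCF binding was measured with ChIP-seq (chromatin immunoprecipitation followed by sequencing) on forebrain from mice of strain B6NCrl on postnatal day 0 (P0). The tissue was pulverized and pooled from more than 1 dissection, with sex not collected, and it carried no stated mutation or treatment. The series held 1 group of 2 libraries, named as biological replicates 1 and 2, that cite the same biosample and donor, and differences between these libraries may therefore be technical only. There was no second condition and no control library in the files used here, so the values below are descriptions without tests. Whole forebrain holds many cell types, and a site bound in few cells cannot be told apart from a site bound weakly in many.

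GABA-A receptors are chloride channels that open when they bind GABA, the main inhibitory transmitter of the adult brain. Each channel is a ring of several subunits, usually of the alpha, beta and gamma types, and the subunit mix sets where the receptor sits and how it responds to GABA and to drugs such as benzodiazepines. In the newborn forebrain, GABA can still depolarise many neurons, and subunit use changes as circuits mature. The zinc-finger protein CTCF recognises a long, directional DNA motif and, with cohesin, anchors chromatin loops, the ends of which tend to carry motifs that point towards each other.

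The sequences under the sites that carry most of the description are given first. The optimal list was searched for a 14-base CTCF core consensus on both strands, and a match had at most 2 mismatches and lay wholly within 50 bp of the summit. In the sequences below, read 5′ to 3′ on the strand of the match in mm10, the capitals mark the 14 bases of the match and the lower case the 8 bases on each side. They come from the strongest sites of each cluster, from the promoter sites that had a match, and from the site closest to the left end of the chromosome 5 genes. The last pair, the site nearest to Gabrb1 and the single site that equals the consensus, was added after the values were seen.
Gabra2 intron 8, chr5:70987983-70988012, minus strand: agcagtagCCAGCAGGTGGTATcaaacaat
Gabra2 promoter, chr5:71096349-71096378, plus strand: tatggctcCCACTGGAGGGCGAaggggcta
Cox7b2 intron, between Gabra2 and Gabra4, chr5:71502246-71502275, plus strand: atatgaccACACCAGGGGGCGCtcttaaca
Gabrb1 intron 5, chr5:72094784-72094813, minus strand: acagttaaCCTGTAGAGGGCACccaagact
Gabrg3 intron 1, 2545 bp into the gene, chr7:57384309-57384338, minus strand: gcctctcaCCACTAGAGGGAGAatgagact
Gabrg3 promoter, chr7:57386612-57386641, plus strand: tctgcagcCCAGTGGACGGCGCgcacctgg
Gabra5 intron 5, chr7:57474354-57474383, minus strand: aatcacagCCACTAGATGGTGCcatgaata
Gabra5 promoter, chr7:57510054-57510083, plus strand: ctaggcgcCCGGTAGAGGCCGCcagactct
Upstream of Gabra5, chr7:57513128-57513157, plus strand: tctggaaaACAGTAGAGGGCACcccagttc
Gabrb2 promoter, chr11:42419995-42420024, plus strand: gttgggccACAGTAGTGGGCGGcgagctcc
Gabrb2 intron 4, chr11:42423449-42423478, minus strand: caacgtggGCAGCAGGGGGCGCtcctgcat
Gabrb1 intron 3, chr5:71701195-71701224, minus strand: cttggccgCCGGCAGATGGTGCcctgcaca
Flank beyond Gabra5, chr7:57538715-57538744, minus strand: ttgtatagCCACTAGATGGCGCcattagat

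The measure of binding is the signal value, the strength that the authors' peak caller wrote for each peak. Its scale is not stated, so it ranks and describes peaks. For the optimal list it equals the value of the list called on both libraries together (56462 of 56462 peaks, within 0.0001). For each replicate it is the value of that replicate's strongest peak overlapping the site. To compare the libraries, the log2 of replicate 1 over replicate 2 was taken at each site, less the median of that ratio over the optimal list.

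The promoters of 4 of the 7 genes held a CTCF summit within 1 kb of an annotated transcription start site (TSS), namely Gabra2, Gabra5, Gabrb2 and Gabrg3. In the same list, 36.8% of all protein-coding genes had such a summit, as did 51.7% of the 5007 protein-coding genes whose bodies are 50 kb or longer, a length that all 7 genes exceed. With 7 genes, a count of 4 is near the share among long genes and does not set them apart. Gabra5, Gabrb2 and Gabrg3 each had 2 promoter summits, and 2 or more were found at 8.39% of protein-coding genes and at 13.7% of those of 50 kb or more. This rests on 7 genes and was not tested. The weaker summits of Gabra5 and Gabrb2 had signal values of 23.0 and 26.7, against a list median of 64.3. Gabra4, Gabrb1 and Gabrg1 had no summit within 1 kb.

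**Figure D1:**
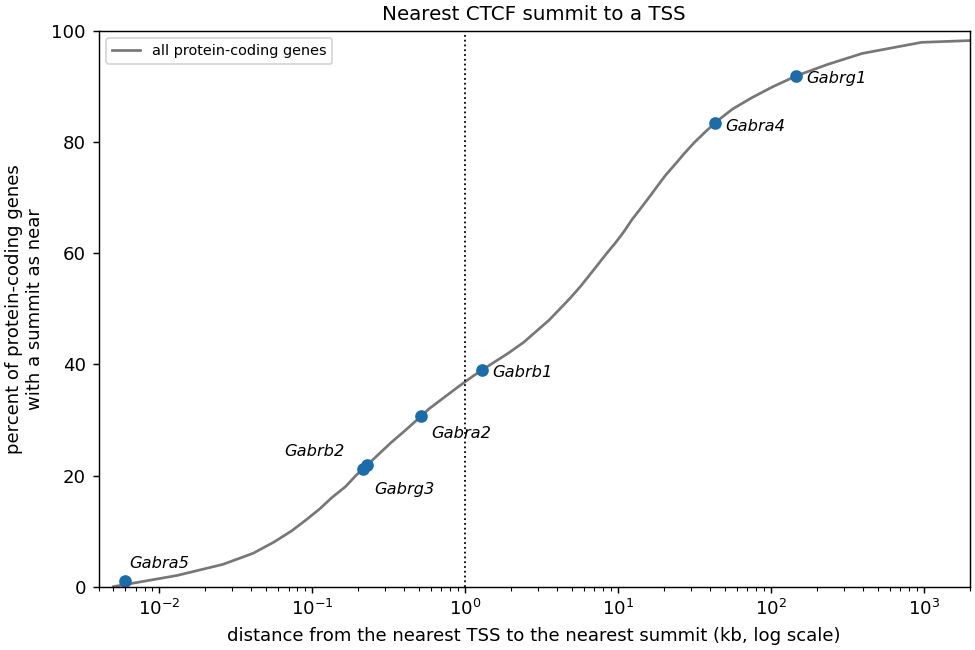
Distance from the nearest TSS to the nearest optimal-list CTCF summit (kb, log scale) against the percent of all protein-coding genes with a summit as near; points are the 7 genes, the grey line is all protein-coding genes and the dotted line marks 1 kb. Gabra5, at 6 bp, sits at the left end, Gabrb1 lies just outside 1 kb at 1282 bp, and Gabrg1, at 145372 bp, is farthest to the right.

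The plot of distance to the nearest summit places the 7 genes across nearly the whole range of protein-coding genes. The median protein-coding gene had its nearest summit 4.17 kb from a TSS, and the median gene of 50 kb or more 0.878 kb. Gabra5 had a summit 6 bp from a TSS, and only 1.09% of protein-coding genes had one as near. At the other end, 91.9% of protein-coding genes had a summit as near as, or nearer than, that of Gabrg1, and 83.4% had one as near as that of Gabra4. Gabra2, at 513 bp, was within the 1 kb limit, and Gabrb1, at 1282 bp, lay just outside it. The Gabrb1 distance is from the only TSS used for that gene, at 71699932. That TSS lies inside the gene, which is annotated from 71658113.

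The alpha subunits form, with beta subunits, the pocket that binds GABA, and largely set the benzodiazepine response. Gabra2 (ENSMUSG00000000560, chromosome 5, 70957597 to 71095849, minus strand) encodes alpha2, a synaptic subunit that is prominent in the young forebrain. Its promoter summit lay 513 bp upstream of the TSS, in the peak at chr5:71096260-71096455. The signal value there was 161 in the optimal list, 78.6 in replicate 1 and 82.4 in replicate 2, higher than 74.3% of the list. The library values are close, and the centred log2 ratio was -0.27. The match under this summit had 2 mismatches, lay on the plus strand, opposite to the direction of transcription, and its centre was 1.5 bp from the summit.

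Gabra2 carried 2 more sites of similar strength just inside the gene, both in intron 2. The one 1826 bp downstream of the TSS (chr5:71093971-71094093) had a signal value of 128, with 64.2 in replicate 1 and 61.1 in replicate 2, and a match on the minus strand. The one 3214 bp downstream (chr5:71092571-71092704) had 137, with 64.7 and 69.4, and no match within 2 mismatches. The 3 summits thus stood close together, with 1388 and 2339 bp between neighbours, and the matches of the outer promoter site and of the middle site were on opposite strands. Far downstream, 107860 bp from the TSS in intron 8 of 9, the site nearest the left end of the chromosome 5 genes (chr5:70987839-70988138) was weaker, at 48.0, with 24.6 and 21.1 in the replicates. Its neighbour 5472 bp away in the same intron had 69.3, with 36.2 and 34. The first of this pair was the only one of the 34 sites with its summit in repeat-masked sequence, against 17.8% of the whole list.

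Gabra4 (ENSMUSG00000029211, chromosome 5, 71569749 to 71658308, minus strand) encodes alpha4, a subunit found largely in receptors outside synapses. It had no optimal-list summit in its promoter or in its body of 88.56 kb. Its nearest summit, 42906 bp from a TSS, lay inside the neighbouring Gabrb1. Within 1 kb of its 3 annotated TSSs the strongest peak of replicate 1 had a signal value of 3.8 and a q-value of 0.336. In replicate 2 it had 9.21 and a q-value of 0.000107, and on both libraries together 8.8 and a q-value of 0.164. The weak peak of replicate 2 was therefore not matched in replicate 1.

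Gabra5 (ENSMUSG00000055078, chromosome 7, 57407672 to 57510059, minus strand) encodes alpha5, known in the hippocampus as a mostly extrasynaptic subunit. The promoter summit in the peak at chr7:57509926-57510140 lay 6 bp upstream of the outermost TSS and had a signal value of 160. Replicate 1 gave 95.8 and replicate 2 gave 63.7, a centred log2 ratio of 0.39. The second promoter summit (chr7:57509045-57509344) was 176 bp downstream of the innermost TSS, in the untranslated part of the first exon of 1 transcript and in intron 1 of the others. It was much weaker, at 23.0, with 9.37 and 15.0 in the replicates, was higher than 11.3% of the list only, and had no match. The 2 summits stood 870 bp apart, and the replicates differed in opposite directions at them, the weaker site having a centred log2 ratio of -0.88.

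The site on the outermost Gabra5 TSS can be seen in its promoter sequence, which is shown because the match ends a few bases before the transcript begins. The 250 bases upstream of the start are from RefSeq (GRCm38.p6), read along the gene, with the match in capitals. It appears here as its reverse complement, because it lies on the strand opposite to the gene.
Gabra5 promoter, chr7:57510060-57510309, minus strand: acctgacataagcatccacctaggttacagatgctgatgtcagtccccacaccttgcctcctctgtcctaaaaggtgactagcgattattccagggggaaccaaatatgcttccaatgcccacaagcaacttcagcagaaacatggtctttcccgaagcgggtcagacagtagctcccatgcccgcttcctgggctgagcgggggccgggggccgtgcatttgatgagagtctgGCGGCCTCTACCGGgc
RefSeq windows of 300 bases, from 250 before to 50 after a start, were found for all 7 genes, 10 windows in total. Only those of Gabra5 and Gabrg3 contained an optimal-list summit. They held 13 CG dinucleotides each, against 25 in the windows of Gabra2 and of the distal Gabrb1 start, 3 in that of Gabrg1 and a median of 7 over 32851 windows.

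Inside Gabra5, intron 5 held 3 sites, 1 of which was the second strongest of all 34. The peak at chr7:57474240-57474472, 35018 bp downstream of a TSS, had a signal value of 282, above 90.3% of the list, with 151 in replicate 1 and 130 in replicate 2. Its match, with 1 mismatch, lay on the minus strand, the direction in which the gene is transcribed. The 2 weaker sites had 65.4 (32.3 and 33.6 in the replicates, no match) and 68.7 (35.7 and 32.1, match on the minus strand). These 3 sites, both Gabra5 promoter sites and the 3 sites to the right of Gabra5 also lie in the body of a gene on the opposite strand that is not among the 7. None of them can be assigned to Gabra5 alone.

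The beta subunits complete the GABA pocket and help to bring receptors to the membrane. Gabrb1 (ENSMUSG00000029212, chromosome 5, 71658113 to 72149037, plus strand) encodes beta1. The site nearest to a TSS of the basic transcript set (chr5:71701064-71701363), 1282 bp downstream in intron 3 of 8, had a signal value of 106, with 58.2 in replicate 1 and 47.8 in replicate 2. The GC content within 50 bp of that summit was 67.3%, with 7 CG dinucleotides, values close to those of promoter sites. Within 1 kb of this TSS, replicate 1 had no peak at all, and replicate 2 had 1 peak of 7.96 with a q-value of 0.000503. On both libraries together that peak had 6.26 and a q-value of 0.592.

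In the rest of Gabrb1, which spans 490.9 kb, 4 sites were spread over the gene. The strongest, in intron 5 (chr5:72094697-72094866), had 154, with 80.8 in replicate 1 and 73.2 in replicate 2, and a match with 1 mismatch on the minus strand, against the direction of transcription. A pair in intron 4 stood 11289 bp apart with 46.4 (23.6 and 21.8) and 49.2 (24.3 and 23.3). The last site lay in the untranslated part of exon 9, at the right end of the chromosome 5 genes (chr5:72148740-72149039). It had 43.0, with 23.6 and 20.4, and no match.

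Gabrb2 (ENSMUSG00000007653, chromosome 11, 42419757 to 42629028, plus strand) encodes beta2, part of the most common receptor of the adult brain. Its summits were packed at the 5′ end. The promoter peak at chr11:42419091-42419390, 516 bp upstream, had a signal value of 26.7, with 10.7 in replicate 1 and 14.1 in replicate 2, and no match. The promoter peak at chr11:42419835-42420134, 228 bp downstream in the untranslated part of exon 1, had 46.3, with 24.7 and 22.4, and a match on the plus strand. Both were below the median of the whole list, 64.3. The strongest site of the gene (chr11:42423383-42423538) had 160, with 88.0 and 70.2. It lay in intron 4 of 9 of the transcript from the outer TSS, and in intron 3 of 9 of that from the inner TSS. The inner TSS was the nearest, at 2114 bp. The match of this site was on the minus strand, so it and the match of the exon 1 site pointed towards each other. The summits of these 2 sites were 3479 bp apart.

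The gamma subunits are needed for clustering at synapses and for benzodiazepine binding. Gabrg1 (ENSMUSG00000001260, chromosome 5, 70751047 to 70842617, minus strand) encodes gamma1, the least widely expressed of them. It had no optimal-list summit in its promoter, in its body of 91.57 kb, or in the 115.0 kb between it and Gabra2. Its TSS nevertheless had weak peaks in both libraries. The strongest within 1 kb had 10.9 in replicate 1, 270 bp away with a q-value of 0.000142, and 12.9 in replicate 2, 850 bp away with a q-value of 1.04e-05. The list on both libraries together gave 17.9 there. The strongest peaks of the replicates were thus at different positions, and none was in the optimal list. The strongest peak of replicate 2 did have a weaker peak of replicate 1, at 6.79, within 100 bp of its summit. The q-value of 1.04e-05 in replicate 2 is also that of its peak of 82.4 at Gabra2, so it does not grade strength.

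Gabrg3 (ENSMUSG00000055026, chromosome 7, 56716465 to 57387188, minus strand) encodes gamma3 and is the longest of the 7, at 670.7 kb. Its 5′ end held the strongest site of all 34. That peak (chr7:57384193-57384432), in intron 1 and 2545 bp downstream of a TSS, had a signal value of 299, above 92.1% of the list, with 156 in replicate 1 and 143 in replicate 2. The promoter peak 272 bp upstream of the outer TSS (chr7:57387396-57387503) had 107, with 58.6 and 48.7, and its best alignment to the consensus had 3 mismatches. This site and the one 3058 bp upstream of Gabrg3 also lie in an antisense RNA gene on the opposite strand, so they cannot be assigned to Gabrg3 alone. The other promoter peak, 215 bp downstream of the inner TSS in intron 1 (chr7:57386506-57386805), had 55.7, with 23.1 and 34.4.

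That last peak was the most GC-rich of the 34 summits, at 78.2% GC with 13 CG dinucleotides within 50 bp. Its sequence on the plus strand is shown for that reason, with every CG in capitals.
Gabrg3 promoter summit, chr7:57386606-57386706, plus strand: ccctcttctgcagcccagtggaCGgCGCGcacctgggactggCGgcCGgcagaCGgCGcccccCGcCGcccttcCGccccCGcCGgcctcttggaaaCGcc
The replicates differed more here than at most sites, with replicate 2 the higher, and the centred log2 ratio was -0.77. The match with 2 mismatches was centred 29.5 bp from the summit. Farther into Gabrg3, the site nearest the left end of the chromosome 7 genes (chr7:56938067-56938366, intron 5 of 9) had 31.5, with 17.8 in replicate 1 and 12.7 in replicate 2, and no match. The site 8361 bp from it in the same intron had 145, with 66.6 and 79.8. A site in intron 2 had 33.1, with 20.9 and 12.5.

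Across the listed genes, the stretches between them and the 100 kb flanks, summits were sparse. Other receptor genes of the clusters did not set these regions, which are therefore not whole clusters. On chromosome 11 the region was Gabrb2 alone with its flanks. The map of the 3 clusters shows 15 summits on chromosome 5, 15 on chromosome 7 and 4 on chromosome 11. Per 100 kb these were 0.939 (95% exact Poisson interval 0.525 to 1.55) on chromosome 5, 1.51 (0.845 to 2.49) on chromosome 7 and 0.977 (0.266 to 2.5) on chromosome 11. The whole chromosomes had 2.7, 2.68 and 3.48. In all, the 34 summits gave 1.13 per 100 kb (0.785 to 1.58), against 2.3 on the autosomes. These intervals cover counting error only, and summits are not independent of one another.

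The low density was not shared by every stretch. Between Gabrg3 and Gabra5 there were 2 summits in 20.48 kb, or 9.76 per 100 kb (1.18 to 35.3), of which 1 was a Gabrg3 promoter site and the other, 3058 bp upstream of Gabrg3 (chr7:57390096-57390395), had 94.0, with 54.4 and 40.8 in the replicates. Between Gabra2 and Gabra4 there were 3 in 473.9 kb, or 0.633 per 100 kb (0.131 to 1.85). The flank to the left was empty on chromosomes 5 and 7, where the 100 kb to the right held 3 and 4 summits, while on chromosome 11 the left flank held 2 and the right flank 0. An empty 100 kb allows up to 3.69 summits by the same interval, which is above the 2.3 of the autosomes.

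Long stretches without an optimal-list summit took up much of these regions. Gabrg1 lay whole within 1283557 bp without a summit (chromosome 5, 69704432 to 70987989), and 0.154% of the 56441 gaps between neighbouring summits in the list were as long. The body of Gabrb2 beyond its intron 4 site was part of a gap of 575926 bp (0.755% as long). The 3′ part of Gabrg3 lay in a gap of 477172 bp (1.02%), and a gap of 378193 bp (1.51%) fell inside the gene. The longest inside Gabrb1 was 264523 bp (2.55%). Outside the optimal list, weak peaks called in both replicates lay in the gaps of Gabrg1 and Gabrb2 and in the 3′ gap of Gabrg3. The median gap in the list was 15.8 kb. On the other hand, pairs of summits stood 744 bp apart at Gabrb2, 804 bp at Gabrg3 and 870 bp at Gabra5, and at least 94.4% of gaps were as long as these.

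**Figure D2:**
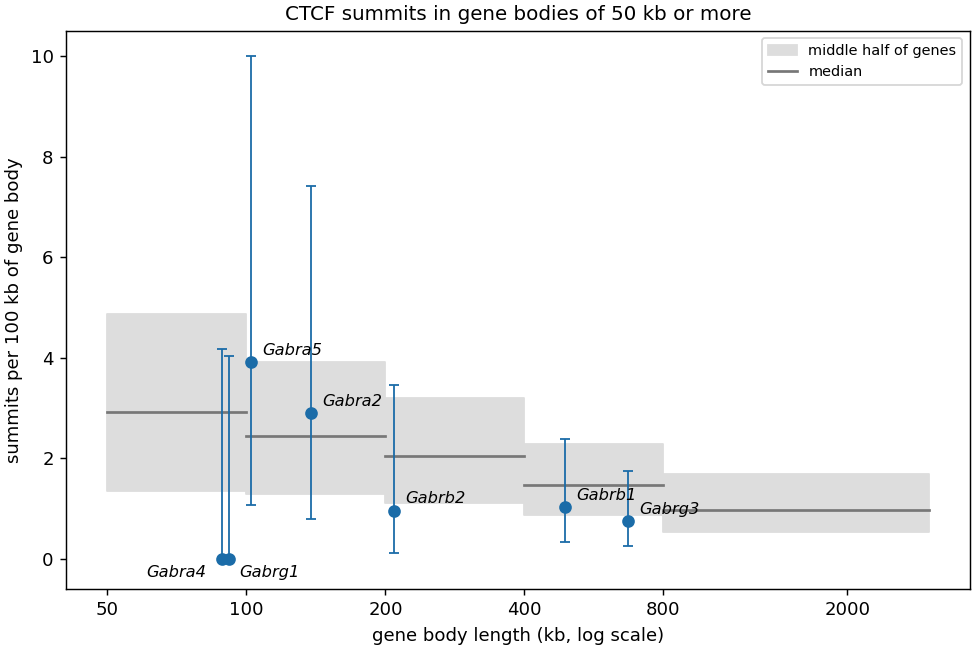
Summits per 100 kb of gene body against gene body length (kb, log scale) for the 7 genes, with 95% exact Poisson intervals; grey boxes and lines are the middle range (25th to 75th percentile) and median of protein-coding genes of 50 kb or more in each length class. Gabra5 (3.91) and Gabra2 (2.89) lie above their class median, Gabrb1, Gabrb2 and Gabrg3 below it, and Gabra4 and Gabrg1 at 0.

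Within the bodies of the 7 genes, 20 summits gave 1.12 per 100 kb (0.682 to 1.72). The plot against gene length sets each gene beside others of its size, since shorter genes in the list had denser sites. Gabra5, with 4 summits, had 3.91 per 100 kb (1.06 to 10), at percentile 73.4 of genes of 50 kb or more, and Gabra2, with 4, had 2.89 (0.788 to 7.41), at percentile 57.4. Gabrb1, with 5, had 1.02 (0.331 to 2.38), Gabrb2, with 2, had 0.956 (0.116 to 3.45) and Gabrg3, with 5, had 0.745 (0.242 to 1.74). These 3 lay at percentiles 19.5 (Gabrb2), 20.9 (Gabrb1) and 16.2 (Gabrg3). Gabra4 and Gabrg1 had 0, with upper limits of 4.17 and 4.03, as did 11.8% of genes of that length. The median of these genes was 2.4, which lies above the intervals of Gabrb1 and Gabrg3 and inside those of the other genes. For Gabrb1 and Gabrg3, the median of genes of 400 to 800 kb was 1.47, which lies inside both intervals.

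In strength, the sites were close to the list as a whole, except on chromosome 11. The median signal value over the 34 sites was 68.3, with a range from 21.2 to 299, against a median of 64.3 for the whole list, and 19 were above that median. The medians were 69.3 on chromosome 5, 68.7 on chromosome 7 and 36.5 on chromosome 11. On chromosome 5 the strongest site (chr5:71502146-71502369) was in no listed gene but in an intron of Cox7b2, 155615 bp from the nearest TSS of Gabra4. It had 260, with 123 in replicate 1 and 135 in replicate 2. The next strongest on chromosome 7 after those in Gabrg3 and Gabra5 (chr7:57513052-57513247), 3091 bp upstream of Gabra5, had 173, with 101 and 69.2.

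The remaining sites were mostly weaker. Between Gabra2 and Gabra4, a site 166839 bp upstream of Gabra2 had 42.6, with 24.6 and 19.3. To the right of Gabrb1, a site in an intron of Commd8 had 23.4 (8.62 and 12.4), the next 91.0 (48.4 and 42.1) and the outermost 55.2 (32.4 and 20.8). To the right of Gabra5, the site equal to the consensus had 68.0 (38.8 and 28.2), and the outermost had 22.6 (19.6 and 10.1). Thus a perfect match lay under a site close to the middle of the list. To the left of Gabrb2, 93193 bp upstream, the weakest of the 34 had 21.2, with 8.09 and 12.3.

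**Figure D3:**
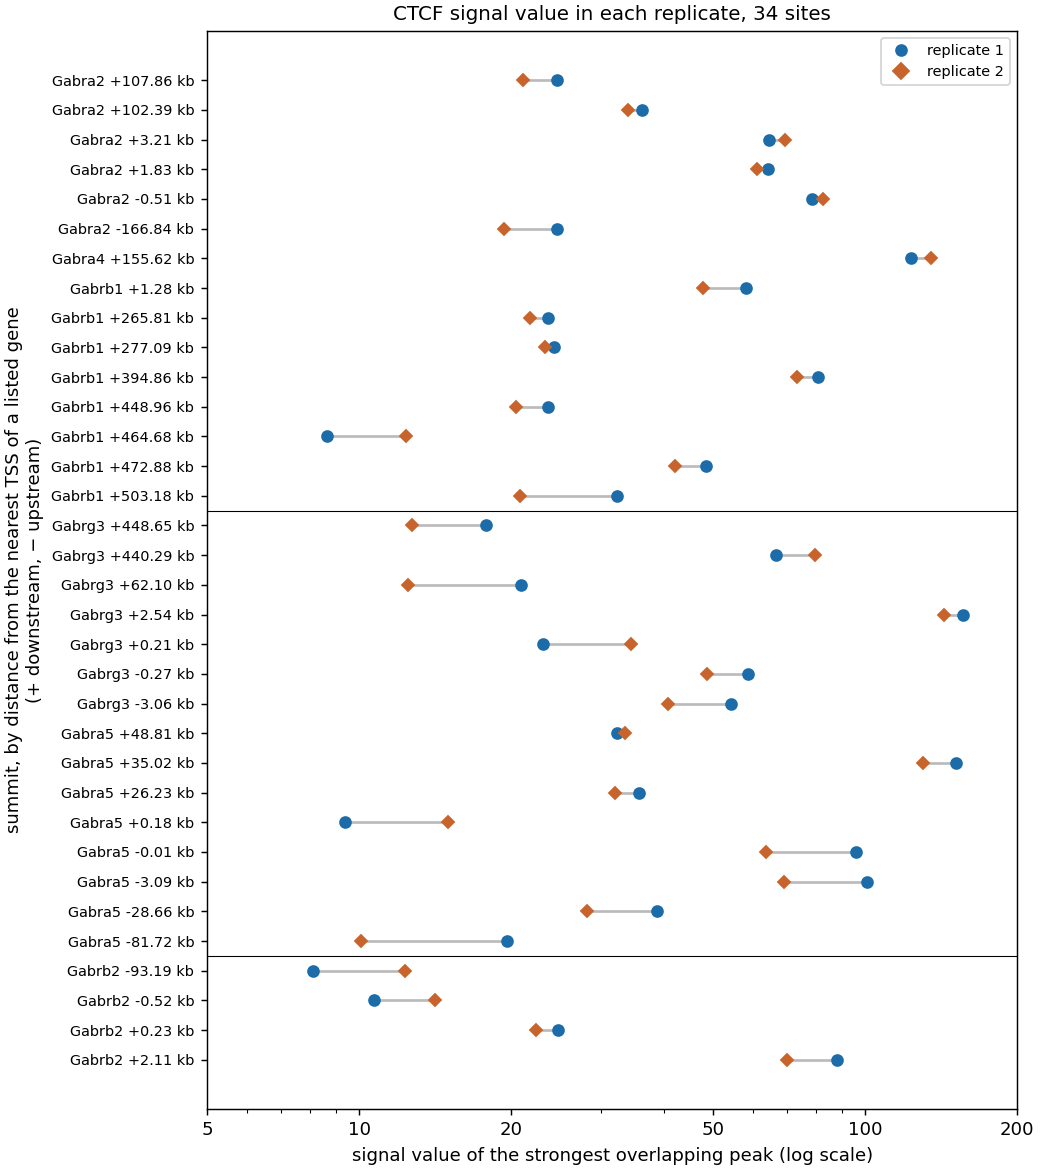
Signal value (log scale) of the strongest overlapping peak in replicate 1 (circles) and replicate 2 (diamonds) at the 34 sites, in order along the 3 clusters. The libraries keep nearly the same order of sites, and the widest gaps are at weak sites such as the ones 81725 bp upstream of Gabra5 and 176 bp inside it.

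The libraries gave close values at most sites, as the plot of both replicates shows. The median was 35.9 in replicate 1 and 33.8 in replicate 2, and over the whole list 34.9 and 30.2. The centred log2 ratio had a median of -0.05, an SD of 0.39 and a range of -0.88 to 0.75, and over the whole list an SD of 0.50. Across the 34 sites the log2 values correlated with Pearson's r of 0.943 and Spearman's rho of 0.943, against 0.935 and 0.937 over 56235 sites with a peak in both. Sites share the same libraries, so these are descriptions. The stricter conservative list kept 31 of the 34, against 87.4% of the optimal list. The 3 it left out were the Commd8 site, the inner Gabra5 promoter site and the site upstream of Gabrb2, all at or under 23.4.

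A motif match was found at 21 of the 34 sites (61.8%), against 66.6% of the list. Over the whole list, windows 1000 bp upstream and downstream of the summits had a match in 2.91% and 2.97%. The median signal value was 106 at sites with a match and 43.0 at the others, and over the whole list these were 93.0 and 38.3. By cluster, 11 of 15 sites had a match on chromosome 5, 8 of 15 on chromosome 7 and 2 of 4 on chromosome 11. Absence of a match says only that these letters were not found in the window.

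Promoter sites differed from the others in base composition, as they did across the list. The 7 promoter sites had a median GC content of 64.4% within 50 bp of the summit, and the other 27 had 44.6%. The medians over the list were 63.4% and 51.5%. A match was found at 4 of the 7 promoter sites and at 17 of the other 27 (63.0%). Over the list, 36.0% of promoter sites and 72.7% of other sites had one. Median signal values were 55.7 at the promoter sites (48.1 over the list) and 68.7 at the others (68.9 over the list).

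The strand of the match gives the direction in which a site points. Of the 21 matches, 9 were on the plus strand and 12 on the minus strand, and in the list these were 18638 and 18978. All 4 promoter matches were on the plus strand, those of Gabra2, Gabra5, Gabrb2 and Gabrg3, although 3 of these genes are transcribed from the minus strand. Inside the bodies of the listed genes 3 matches were plus and 10 minus, and outside those bodies 6 were plus and 2 minus. Some of the latter lay in other genes, such as Cox7b2 and Commd8, so the split does not separate genes from intergenic sequence. On chromosome 7, from the 5′ end of Gabrg3 rightwards, the matches were minus in Gabrg3 intron 1, plus at its promoter, minus at both matched sites of Gabra5 intron 5 and plus at the Gabra5 promoter. The numbers are small, and the split was not tested.

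Of 22 other genes of GABA signalling outside these clusters, 10 had a promoter summit, beside the 36.8% of protein-coding genes given above. The count was 8 without replicate 1 and 7 with 1 TSS per gene, beside 37.2% and 34% of protein-coding genes. It was 10 without replicate 2 (38.3%), 12 with the comprehensive transcript set (41.4%) and 17 within 5 kb (52.3%). On the conservative list and within 500 bp it was 8, beside 35.5% and 30.4%. How the count stood to these shares depended on the setting, and it was not tested. The list of 22 genes holds other receptor subunits, GABA synthesis and transport genes, synaptic anchors and chloride transporters. The strongest was at Gad1, which encodes a GABA-synthesising enzyme, with 186 (98.8 in replicate 1 and 86.2 in replicate 2) in the peak at chr2:70561104-70561305 and a match with 0 mismatches. The next was at Gabbr1, a subunit of the metabotropic GABA-B receptor, with 163 (87.4 and 75.3) at the strongest of its 4 promoter summits. Slc32a1, the vesicular GABA transporter, had 72.1 (36.2 and 37.1) and no match. The median over the 10 genes was 57.4, and 3 had a match at their strongest summit. Of the GABA-A subunit genes in that list, Gabrd had a promoter summit, with 28.1 (20.9 and 7.4), and Gabra3, Gabre, Gabrq, Gabrp, Gabrr1, Gabrr2 and Gabrr3 had none.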

How the data were processed

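The deposited files were CTCF ChIP-seq peak lists on mm10, per the labels: 1 per replicate, 1 called on both libraries together, and 2 lists, named optimal and conservative, filtered by IDR (irreproducible discovery rate). Each replicate list and the pooled list held 300000 peaks. Aligner, peak caller and sequencing depth were not given in the sources used here. The authors' signal value ranks peaks, on a scale that is not stated. The deposited −log10 q-value was turned into q-values, the deposited score was read but not used as a measure, and the deposited summit offset (column 10) placed each summit.

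Sites were assigned to GENCODE M21 basic transcripts, and sequence was taken from GRCm38. Gene body density used gene length, with exact Poisson intervals at 95%. Because depth is unknown, intervals cover counting error only. A replicated peak had a q-value of at most 0.05 in both replicates and summits within 100 bp. With 1 group of 2 libraries, no test was run. The 7 genes and the lists were chosen with earlier results of these data known. All 7 genes, every site within 1 kb of a TSS, the 3 strongest sites of each cluster and the sites nearest the cluster ends were given in full, with their matches, and of the other GABA genes the 3 strongest. As alternatives, results were recomputed on the conservative list, on optimal-list peaks at or above the median signal value and on single replicates, and with other distances, flanks, motif thresholds, pairing and centring. The comprehensive transcript set and a distance of 1500 bp were added after seeing the data. The counting steps were tested on simulated data. Software was matplotlib 3.10.9, scipy 1.17.1, pandas 2.3.3 and numpy 2.4.6, run under Python 3.11.15.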

Additional observations from a re-analysis of the deposited data

Results flagged for a closer look

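Outside the optimal list, 8 further peaks in the clusters and flanks were called in both replicates, with a q-value of at most 0.05 in each and summits within 100 bp of one another. They were noted because they lie in lists that the site counts do not use. Of these, 5 were on chromosome 5, 1 on chromosome 7 and 2 on chromosome 11. They were weak, with median signal values of 7.37 in replicate 1 and 7.96 in replicate 2. The strongest, 15443 bp upstream of Gabrb2, had 15.1 in replicate 1 and 17.4 in replicate 2. A peak 886 bp upstream of Gabrg1, a gene with no optimal-list site near it, had 6.79 and 12.9. No control library was used here, so the level of such peaks in unbound chromatin is not known. No count of such peaks over the whole genome is given here either, so 8 cannot be called many or few.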

How the results depend on the processing

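Of 50 alternatives, 41 gave values close to those reported and 9 moved. For counts, closeness was a loose limit on the ratio, so a change from 10 to 7 of the other GABA genes also counted as close. The median log2 ratio of the replicates was -0.05, and 0.15 when not centred, a change of sign that is smaller than its SD over sites, 0.39. Among optimal-list peaks at or above the median signal value there were 19 summits, at 0.633 per 100 kb against 1.15 on the autosomes. Of these, 11 were in bodies of the listed genes. Among the peaks at or above that median, 4 of the other GABA genes had a promoter summit, beside 16.9% of protein-coding genes. Between the listed genes there were 5 summits, and 5 to 8 in single replicates (8 without replicate 1). Of the 22 other GABA genes, 10 had a promoter summit, beside 36.8% of protein-coding genes. The count was 17 within 5 kb (52.3%), 12 with the comprehensive transcript set (41.4%), 8 without replicate 1 (37.2%) and 7 with 1 TSS per gene (34%). It was also 8 on the conservative list (35.5%) and within 500 bp (30.4%). At most 1 mismatch left 10 sites with a match, and at most 3 mismatches gave 30, against 21. Taken from single libraries, the median over the 34 sites was 35.9 (replicate 1) or 33.8 (replicate 2), against 68.3. The median of the whole list moved in the same way, to 34.9 or 30.2 against 64.3. The number of listed genes with a promoter summit was 3 to 5. Gabrb2 was lost among the stronger peaks and Gabra2 at 500 bp, Gabrg1 was gained without replicate 1, and Gabrb1 was gained at 5 kb and at 1500 bp. The share of all protein-coding genes moved too, to 16.9% among the stronger peaks and 30.4% at 500 bp. It was 37.2% without replicate 1, 52.3% at 5 kb and 40.1% at 1500 bp. No paired analysis was possible because there is 1 group. Depth is unknown, so an empty gene may hold sites under the detection limit.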
